A study of Mus musculus with 18 samples.

Results

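The comparison set mouse embryoid bodies grown for 3 days without leukaemia inhibitory factor (D3-LIF) against bodies of the same age grown with it (D3+LIF). Its members were the cDNA clones on a 2-slide mouse cDNA array that carried 1 gene symbol and had a value on all 4 Day 3 arrays. These were 9866 of 15360 clones, and they stood for 7142 genes. Of the genes, 5195 had 1 clone, 1413 had 2 clones and 534 had 3 clones or more.

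Leukaemia inhibitory factor (LIF) is a cytokine that binds a receptor made of Lifr and Il6st (gp130) and acts through the kinase Jak1 and the transcription factor Stat3. Together with serum it keeps mouse embryonic stem (ES) cells undifferentiated. When ES cells are allowed to aggregate they form embryoid bodies (EBs), in which extraembryonic endoderm and the early germ layers appear over several days, and withdrawal of LIF is the usual way to start that process.

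The whole series held 18 arrays: undifferentiated ES cells (D0) and EBs of Days 1, 2, 3 and 4, each without and with LIF, with 2 arrays per condition. D3-LIF bodies were started as hanging drops of 1000 cells in ES medium from which LIF was left out, and were flooded with medium after 1 day and cultured floating. D3+LIF bodies were handled in the same way in ES medium with LIF. Both groups came from ES cells maintained with LIF, shared foetal and newborn bovine serum, and derived from a single ES cell line (IMT11) according to the methods of the study.

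Each array carried one labelled RNA sample and a differently labelled pooled control RNA. In each condition, the sample was labelled with Cy3 on one array and with Cy5 on the other, and the 2 arrays used different RNA samples from 2 biological sets, without a statement of which set each array came from. A dye pair below is the D3-LIF array and the D3+LIF array whose samples carried the same dye. Because the dye and the biological set may be the same split, they cannot be told apart, and p-values measure only the spread between these samples.

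All values are log2 ratios of sample to pool, with each slide of each array centred on its median. The sources used here do not state which channel was divided by which. Sample over pool is the likely direction, since the labels place the sample in the first channel, and every "higher" and "lower" below turns round if the pool was on top. Across clones, the 2 arrays of a condition correlated below 0 in 6 of 9 conditions, between -0.513 and -0.194, and at 0.539 in D3-LIF and 0.252 in D3+LIF bodies, so whether both dyes share one direction in the whole series is not settled. If only the Cy3 arrays ran the other way, differences shared by the dye pairs would shrink, most of all where the pairs were nearly equal. Zfp42 would then differ by -0.06 in place of -0.90, and Ywhae by -0.48 in place of -1.41. In a bulk sample such as this one, fewer cells of a type and less RNA per cell cannot be told apart.

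No clone and no gene passed the test between D3-LIF and D3+LIF bodies. In the limma fit over all 18 arrays, 0 of 15360 clones (0%) and 0 of 7142 genes (0%) had an adjusted p under 0.05. An unadjusted p under 0.05 was found for 98 clones (0.638%) and 51 genes (0.714%). These shares lie below the level of 0.05 itself, so this fit errs towards few calls. Its 0 calls do not show that the 2 groups were alike. The smallest adjusted p was 1 among genes. Fitted on the 4 Day 3 arrays alone, 657 genes (9.2%) had an unadjusted p under 0.05 and again 0 passed, with a smallest adjusted p of 0.501. The values that follow are therefore measurements with their errors, and none of them is a called difference. Each SE comes from the fit over all 18 arrays, so it also holds the spread of arrays of the other days. For Zfp42 it was 0.90, against 0.15 in the fit on the 4 Day 3 arrays alone. An SE below is therefore not the spread of the Day 3 difference by itself. Genes are named by their smallest p, by the agreement of their clones or by fixed lists, except where a gene is said to have been chosen after its values were seen.

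Of the arrays outside Day 3, 3 stood apart on slide 1. The D0 Cy3 array had a median ratio of 0.151 and a standard deviation of 2.23, the D1+LIF Cy5 array had values for 3903 of its 7680 clones, and the D2-LIF Cy5 array had values for 803. The 4 Day 3 arrays were complete on both slides, with duplicate spots correlated at 0.772 to 0.959. Left out together, the 3 arrays that stood apart on slide 1 gave 298 genes with an unadjusted p under 0.05 and again 0 called. On slide 2 the D4+LIF Cy5 array had the largest median ratio (2.98) and standard deviation (1.41), and it was kept in that fit.

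The difference between D3-LIF and D3+LIF bodies agreed only weakly between the dye pairs. Across the 9866 clones the Cy3 and Cy5 differences correlated at 0.248, with the same sign in 6055 clones (61.4%). Both pairs were lower in D3-LIF for 3411 clones and higher for 2644. Duplicate spots agreed far better, with differences correlated at 0.718 in the Cy3 pair and 0.807 in the Cy5 pair. The clones are not independent replicates, and the spread of differences was wider in the Cy5 pair (standard deviation 0.481) than in the Cy3 pair (0.281).

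Part of this agreement followed the position of the spots. Each slide was printed in 48 blocks, and the median differences of the blocks correlated between dye pairs at 0.473 on slide 1 and 0.234 on slide 2. Block medians ranged between -0.78 and 0.43 in the Cy3 pair and between -0.56 and 0.42 in the Cy5 pair. When each block was centred on its own median, the correlation across clones was 0.0819, with 52.3% of clones of the same sign. On slide 2 the share of the same sign was then 49.9%.

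**Figure D1:**
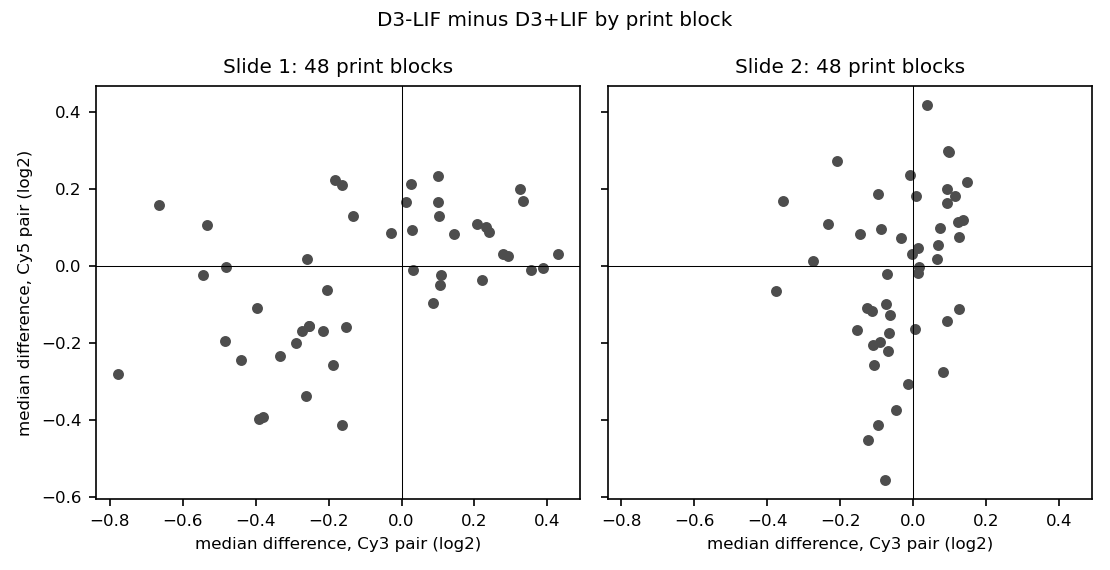
Median of D3-LIF minus D3+LIF (log2) of each print block, with the Cy3 pair on the x axis and the Cy5 pair on the y axis, for slide 1 on the left and slide 2 on the right. Each point is 1 of 48 blocks on a slide, and the lowest block on slide 1 lay at -0.78 in the Cy3 pair.

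Genes with a sizeable difference under both centrings were few. Past 0.5 on the log2 scale the same way in both dye pairs, 70 genes were lower and 17 higher in D3-LIF, against 19 genes past 0.5 in opposite directions. With the further condition that they did so after centring each print block, 9 genes were lower and 4 higher. After print block centring alone, 9 genes lay past 0.5 in opposite directions. This count is not like the 9 and 4 above, which had to pass under both centrings. Among clones after print block centring alone, 39 were lower and 11 higher past 0.5 in both pairs, against 28 in opposite directions. The lower ones were Ywhae, Pbdc1, Dppa5a, Atp5d, Chchd2, Ifitm3, Zfp42, A2m and Nat10, and the higher ones were Nptn, Rps27l, A730082K24Rik and Wasf2. All 13 were chosen on these values, so the differences are given as a description.

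Ywhae, which encodes the epsilon form of the 14-3-3 adaptor proteins, had the largest of these. It stood at -0.49 on the Cy3 array and -2.30 on the Cy5 array in D3-LIF bodies, against 0.44 and -0.42 in D3+LIF bodies, a mean difference of -1.41 ± 0.58 (SE). Both D3-LIF values lay below both D3+LIF values. With 2 arrays per group, a gene without any difference can separate in this way. The share of all genes that did so was not counted, here or for the separations named below. A2m, the protease inhibitor alpha-2-macroglobulin, was the most even between dyes, at -0.35 and -0.52 in D3-LIF bodies against 0.53 and 0.37 in D3+LIF bodies. The A2m differences were -0.88 in the Cy3 pair and -0.89 in the Cy5 pair, and -0.71 and -0.75 after print block centring.

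Ifitm3, an interferon-induced membrane protein also known from early germ cells, stood at -0.56 and -1.09 in D3-LIF bodies against 0.15 and 0.01 in D3+LIF bodies (difference -0.91 ± 0.47, SE). Atp5d, a subunit of the mitochondrial ATP synthase, differed by -0.85 in the Cy3 pair and -1.12 in the Cy5 pair. Chchd2, a protein of the mitochondrial intermembrane space, differed by -0.87 and -0.98, Pbdc1 by -0.93 and -1.09, and the RNA acetyltransferase Nat10 by -0.67 and -0.94. All of these were lower in D3-LIF in both pairs.

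The higher genes included Wasf2 (WAVE2), which links Rac to actin assembly. Wasf2 stood at 0.89 and -0.32 in D3-LIF bodies against -0.29 and -1.03 in D3+LIF bodies, a difference of 0.94 ± 0.32 (SE), and the groups overlapped across dyes. Its duplicate spots in the Cy3 pair gave 2.34 and 0.02, so that the Cy3 difference rested on 1 spot. Nptn, the cell adhesion molecule neuroplastin, stood at 0.68 and -0.33 in D3-LIF bodies against -0.02 and -1.15 in D3+LIF bodies, and its Cy3 difference also rested on 1 spot (1.42 against -0.02 in the copy). Wasf2 and Nptn moved alike under print block centring, as clones of one print block do, so they may share this unevenness. Rps27l, a paralogue of a ribosomal protein, differed by 0.68 and 1.02, and the unnamed locus A730082K24Rik by 0.95 and 0.93. For A730082K24Rik the dyes lay far apart, at 0.67 and -3.18 in D3-LIF bodies against -0.28 and -4.11 in D3+LIF bodies.

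**Figure D2:**
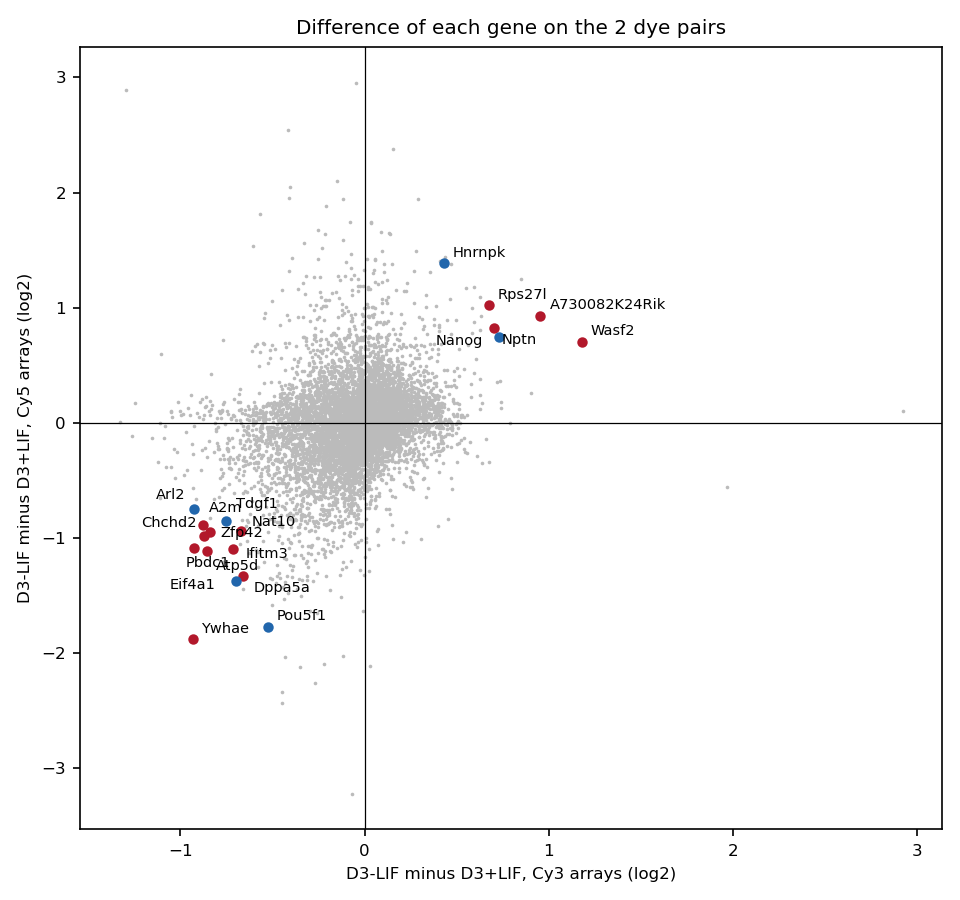
D3-LIF minus D3+LIF (log2) of each of 7142 genes, with the Cy3 pair on the x axis and the Cy5 pair on the y axis. Red points are the 13 genes past 0.5 the same way under both centrings and blue points are 6 further genes described in the text, and most grey points lie around 0 in both pairs.

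Of the markers of undifferentiated ES cells, 5 of 7 listed were measured, each by 1 clone. Zfp42, Dppa5a, Pou5f1 and Tdgf1 were lower in D3-LIF bodies on both dye pairs, and Nanog was higher on both. None passed the test (limma, adjusted p = 1 for each).

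Zfp42 (Rex1), a zinc finger protein lost early as ES cells differentiate, stood at -0.61 and -1.66 in D3-LIF bodies against 0.23 and -0.71 in D3+LIF bodies. The dye pairs gave -0.84 and -0.96, a mean of -0.90 ± 0.90 (SE), or 1.86-fold lower. Each D3-LIF array was below the D3+LIF array of its dye, but the Cy5 array of D3+LIF lay below the Cy3 array of D3-LIF.

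Dppa5a (Esg1), an RNA-binding protein of pluripotent cells, stood at -1.31 and -2.60 in D3-LIF bodies against -0.65 and -1.26 in D3+LIF bodies, a difference of -0.996 ± 0.537 (SE). Pou5f1 (Oct4), a POU factor required for pluripotency, stood at -0.40 and -1.88 in D3-LIF bodies against 0.13 and -0.11 in D3+LIF bodies (difference -1.15 ± 0.77, SE). Tdgf1 (Cripto), a co-receptor for Nodal, stood at -0.10 and -2.54 in D3-LIF bodies against 0.66 and -1.69 in D3+LIF bodies (difference -0.80 ± 1.06, SE). For Dppa5a and Pou5f1 both D3-LIF arrays were below both D3+LIF arrays, whereas for Tdgf1 the groups overlapped across dyes.

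Nanog, a homeobox factor of the same network, stood at 0.10 and -1.07 in D3-LIF bodies against -0.63 and -1.82 in D3+LIF bodies. The Nanog differences of 0.73 and 0.74 were nearly equal in the dye pairs and opposite in sign to those of the other 4 markers. After print block centring the Nanog pairs gave 0.33 and 0.76, those of Tdgf1 -0.29 and -0.83 and those of Pou5f1 -0.29 and -1.65, so that each kept its sign with a smaller Cy3 difference. Pou5f1 and Nanog have pseudogenes with near-identical sequence, whose transcripts a cDNA clone would not distinguish. A ratio does not show whether a marker was expressed above background, since no channel intensity enters it here.

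**Figure D3:**
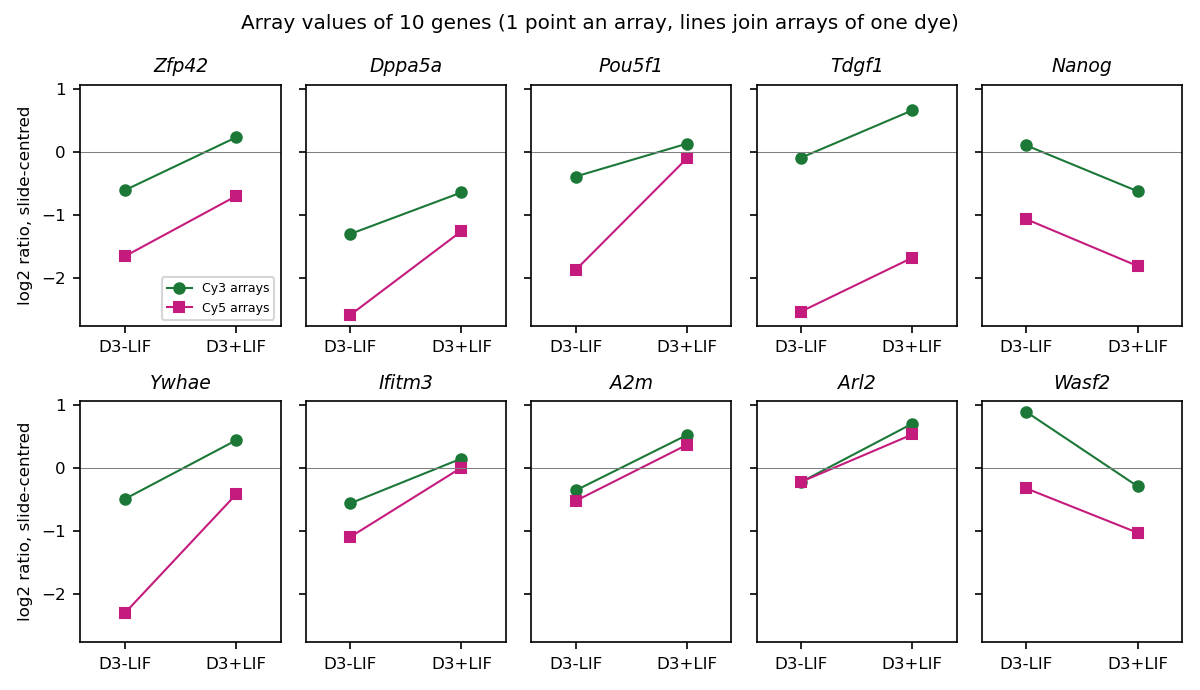
Slide-centred log2 ratio of sample to pool (y axis) of 10 genes on the D3-LIF array (left) and the D3+LIF array (right) of each dye. Lines join arrays of one dye, and 8 genes lie lower on the D3-LIF side in both dyes, whereas Nanog and Wasf2 lie higher.

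The promoters of Zfp42 and Nanog are shown because both hold the core of the octamer, the DNA motif recognised by Pou5f1, while the transcripts lay on opposite sides in this comparison. They run from 250 bases before to 50 bases after the start site (RefSeq, GRCm38.p6), for Zfp42 chr8:43306960-43307259 on the minus strand and for Nanog chr6:122707239-122707538 on the plus strand. Capitals mark TTTGCAT or its reverse complement ATGCAAA.
Zfp42: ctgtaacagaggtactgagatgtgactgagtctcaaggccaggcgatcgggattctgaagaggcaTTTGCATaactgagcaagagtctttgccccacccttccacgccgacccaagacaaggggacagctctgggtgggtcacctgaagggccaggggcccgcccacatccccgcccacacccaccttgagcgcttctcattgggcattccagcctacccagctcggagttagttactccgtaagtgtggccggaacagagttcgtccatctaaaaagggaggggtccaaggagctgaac
Nanog: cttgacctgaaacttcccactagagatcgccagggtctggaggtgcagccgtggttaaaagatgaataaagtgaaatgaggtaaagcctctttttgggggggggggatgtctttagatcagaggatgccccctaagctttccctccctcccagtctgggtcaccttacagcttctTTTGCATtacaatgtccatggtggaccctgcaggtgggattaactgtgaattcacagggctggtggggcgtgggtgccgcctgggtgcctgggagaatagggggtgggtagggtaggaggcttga
The octamer core was present in 4.63% of 32851 RefSeq promoters of this length. The windows of Pou5f1 and Tdgf1 held no match to it, and none of the 4 windows held TTCNNNGAA, the palindromic motif of Stat factors, which 8.3% of promoters hold. Both strands were searched, and a match is a description of the letters only.

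Over the whole pluripotency list the measured genes did not lean one way. Of 27 genes, 6 were higher on both dye pairs, 6 lower on both and 15 opposite, and the median difference was 0.09 beside -0.02 over all genes. Stem cell genes that were not among the markers included Phc1, a Polycomb protein, with 0.06 in the Cy3 pair and 1.22 in the Cy5 pair, and Cd9, a tetraspanin of the ES cell surface, with -0.21 and 1.64. These large Cy5 differences had no counterpart in the Cy3 pair. Klf4, a reprogramming factor downstream of Stat3, differed by -0.11 and 0.04, and Sall4, a zinc finger partner of Pou5f1, by 0.12 and 0.39. The orphan receptor Nr5a2 differed by -0.04 and -0.14.

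The components of LIF signalling did not lean one way. Of 17 measured genes of the pathway, 3 were higher and 4 lower on both dye pairs and 10 opposite, with 0 called (0% of all genes were called) and a median difference of -0.00. The receptor subunit Il6st stood at 0.04 and -0.26 in D3-LIF bodies against 0.18 and -0.03 in D3+LIF bodies, a difference of -0.19 ± 0.17 (SE). The kinases Jak1 and Jak2 differed by 0.04 ± 0.21 and -0.01 ± 0.24 (SE), which is less than their errors.

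Stat3, measured by 3 clones, differed by 0.14 in the Cy3 pair and 0.11 in the Cy5 pair (mean 0.12 ± 0.17, SE). Its slide 1 clone gave 0.35 and 0.30, and its slide 2 clones gave 0.06 and 0.24, and 0.01 and -0.22. Socs3, a direct Stat3 target that feeds back on the receptor, stood at -0.49 and -1.93 in D3-LIF bodies against -0.43 and -1.55 in D3+LIF bodies (difference -0.22 ± 0.61, SE). The Lif transcript itself was opposite in the dye pairs, at -0.55 and 0.14.

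The largest differences of this pathway were in Gsk3b and Gab1. Gsk3b, the kinase that phosphorylates beta-catenin, stood at -0.40 and -1.64 in D3-LIF bodies against 0.02 and -0.94 in D3+LIF bodies (difference -0.56 ± 0.33, SE). Gab1, an adaptor downstream of gp130, stood at 0.04 and -0.19 in D3-LIF bodies against -0.34 and -1.09 in D3+LIF bodies (difference 0.64 ± 0.73, SE). Ptpn11 (Shp2), the phosphatase bound by gp130, differed by -0.37 ± 0.25 (SE). The shared signs were not firm. The clones of Gsk3b disagreed in the Cy5 pair (-1.51 on slide 1 and 0.11 on slide 2). Print block centring left a Cy3 difference of 0.07 for Ptpn11 and 0.08 for Gab1, and of -0.04 and 0.04 in the pairs of Il6st.

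Among 25 measured LIF and Stat3 target genes, 10 were higher and 9 lower on both dye pairs, with a median difference of 0.08. The 2 of smallest p were Ccnd1, encoding cyclin D1, with -0.17 and -0.48, and Zfp36l1, an RNA-binding decay factor, with 0.08 and 0.70 (-0.01 and 0.64 after print block centring). Neither passed the test.

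Genes represented by several clones gave a check within the arrays. Of 534 genes with at least 3 clones, 29 had every clone on the same side in both dye pairs, 19 of them lower and 10 higher in D3-LIF. The lower genes with the largest differences were Eif4a1, Rplp0, Cct7, Hnrnpc, Ftl1 and Tpm3. These are abundant transcripts of translation, protein folding, RNA packaging, iron storage and the cytoskeleton. Clones of one gene share the RNA, the array and often neighbouring positions, so they are not replicates of the bodies.

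Eif4a1, the RNA helicase of the cap-binding complex, had 4 clones, all on slide 1, with values from -0.47 to -0.86 in the Cy3 pair and from -1.11 to -1.87 in the Cy5 pair. The gene averaged -0.28 and -2.82 in D3-LIF bodies against 0.42 and -1.44 in D3+LIF bodies (difference -1.04 ± 0.96, SE). Print block centring left -0.46 and -1.20. The 4 clones thus shared the sign and the larger size in the Cy5 pair.

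Cct7, a subunit of the cytosolic chaperonin, differed between slides. Its 3 clones on slide 1 gave -0.31 to -0.84 in the Cy3 pair and -1.59 to -1.95 in the Cy5 pair, and its clone on slide 2 gave -0.15 and -0.14. Ftl1, the ferritin light chain, was lower on both slides: its slide 2 clone gave -0.72 and -0.63, and its 5 slide 1 clones gave -0.05 to -0.61 and -0.73 to -2.35. The ribosomal stalk protein gene Rplp0 gave -0.22 and -0.96 on slide 2 and -0.09 to -0.58 and -0.58 to -2.63 on slide 1.

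Hnrnpc, a nuclear RNA-packaging protein, averaged -0.34 in the Cy3 pair and -1.50 in the Cy5 pair over 3 clones. Tpm3, a tropomyosin of actin filaments, averaged -0.38 and -1.15 over 3 clones. After print block centring, the Cy3 differences were -0.10 for both Hnrnpc and Tpm3, and the Cy5 differences were -1.27 and -0.96, so that their agreement rested mainly on the Cy5 pair.

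The higher genes of this kind had smaller differences. Twistnb, an RNA polymerase I subunit, averaged 0.26 and 0.52, the histone H2B ubiquitin ligase Rnf20 averaged 0.18 and 0.54, and the proteasome subunit Psma3 averaged 0.31 and 0.32, each over 3 clones. Hipk1, a nuclear kinase, averaged 0.19 and 0.28, the ubiquitin ligase Mycbp2 averaged 0.23 and 0.21, and Ccpg1 averaged 0.35 and 0.08. Print block centring turned the Cy3 differences of Twistnb and Mycbp2 to -0.04 and -0.05 and left 0.05 for Psma3, so that Twistnb and Mycbp2 lost their shared sign.

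**Figure D4:**
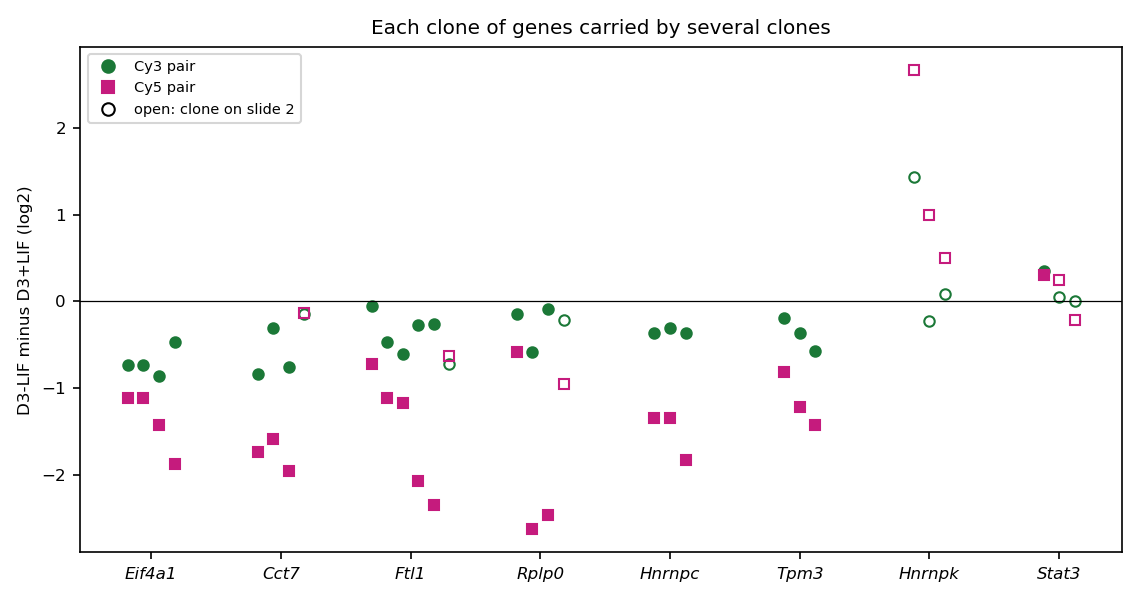
D3-LIF minus D3+LIF (log2, y axis) of each clone of 8 genes, with the Cy3 pair as green circles, the Cy5 pair as magenta squares and slide 2 clones open. All clones of Eif4a1, Cct7, Ftl1, Rplp0, Hnrnpc and Tpm3 lie below 0 in both pairs, whereas those of Hnrnpk and Stat3 lie on both sides.

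Only 2 of the 9866 clones differed by at least 2-fold in all 4 spot pairs, both higher in D3-LIF. One was a clone of Hnrnpk, an RNA-binding protein of splicing and translation, on slide 2. It stood at 2.11 and 0.71 in D3-LIF bodies against 0.68 and -1.96 in D3+LIF bodies, with spot differences of 1.56 and 1.31 (Cy3) and 2.59 and 2.74 (Cy5). The other Hnrnpk clones gave -0.23 and 1.00, and 0.09 and 0.50, so that the clones of Hnrnpk disagreed and its gene mean of 0.91 ± 0.31 (SE) rested on 1 clone.

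The other was a clone of Cs, citrate synthase of the Krebs cycle, on slide 1, at 0.21 and 0.12 in D3-LIF bodies against -0.996 and -1.21 in D3+LIF bodies. Its spot differences were 1.17 and 1.22 (Cy3) and 1.35 and 1.31 (Cy5), without overlap of the groups. The second Cs clone on the array ran the other way, at -0.41 and -0.92, so the clones of Cs disagreed and the gene mean was 0.30 ± 0.68 (SE). After print block centring, 1 clone met this limit. In the other direction, a clone of Ctsl, the lysosomal protease cathepsin L, differed by -1.22 and -1.72 in the means of its duplicate spots, with spot differences from -0.80 to -1.96, and the second Ctsl clone by -0.10 and -1.18.

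Ordered by the test over all arrays, Arl2 came first. Arl2, a small GTPase that takes part in tubulin folding, stood at -0.22 and -0.22 in D3-LIF bodies against 0.71 and 0.54 in D3+LIF bodies. The difference was -0.84 ± 0.18 (SE; limma, unadjusted p = 0.000914, adjusted p = 1). The Arl2 groups did not overlap, but its duplicate spots in the Cy3 pair gave -0.24 and -1.62, and print block centring left a Cy5 difference of -0.37.

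Next among the lower genes were Trip4, Psmd3, Tma16, Becn2, Rdh11, Dlg3, Chrac1, Dnajc17, Mrpl58, Dda1 and Cyth3, with differences from -0.38 for Dnajc17 to -0.92 for Dlg3. Psmd3, a regulatory subunit of the proteasome, stood at -0.08 and -0.76 in D3-LIF bodies against 0.51 and 0.35 in D3+LIF bodies. Dlg3, a scaffold protein of cell junctions, stood at 0.02 and -0.77 in D3-LIF bodies against 0.59 and 0.49 in D3+LIF bodies. For both, the D3-LIF arrays lay below the D3+LIF arrays in either dye. The retinol dehydrogenase gene Rdh11 differed by -0.44 and -0.52, but its 2 clones gave 0.11 and -1.16 in the Cy5 pair and so disagreed. Print block centring left a Cy3 difference of -0.01 for Trip4, -0.14 for Psmd3 and -0.18 for Tma16. It left a Cy5 difference of -0.08 for Chrac1 and -0.01 for both Dda1 and Cyth3. Trip4, Psmd3 and Tma16 moved by equal amounts in this step, as clones of one print block do. Arl2, Chrac1, Dda1 and Cyth3 likewise moved by equal amounts. In the Cy3 pair the duplicate spots gave -0.05 and -1.50 for Chrac1, -0.47 and -0.99 for Dda1, and -0.33 and -1.14 for Cyth3. Much of this order was thus clustered by position.

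Among the higher genes, Srsf6, a splicing factor of the SR family, stood at 0.39 and -0.12 in D3-LIF bodies against -0.13 and -0.76 in D3+LIF bodies (difference 0.58 ± 0.15, SE). The duplicate spots of Srsf6 in the Cy3 pair gave 0.03 and 1.00. A730082K24Rik, Wasf2, Hnrnpk, 4930453N24Rik, Tiprl, Selenot, Plk4, Nptn, Snrpb, Serinc5 and Snhg8 followed, with differences from 0.40 for Serinc5 to 1.27 for Snhg8. Plk4, the kinase that controls centriole duplication, stood at 0.19 and 0.09 in D3-LIF bodies against -0.30 and -0.28 in D3+LIF bodies, without overlap. Print block centring left 0.05 of the Plk4 difference in the Cy3 pair, with a mean of 0.20, and gave -0.03 for Snrpb in that pair. The noncoding RNA host gene Snhg8 was uneven, with 0.15 in the Cy3 pair and 2.38 in the Cy5 pair. Its duplicate spots in the Cy5 pair gave 1.07 and 3.69, so the size of its difference depended much on 1 spot.

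Defining markers of differentiating cell types were near 0 where they were measured. The mesoderm markers T, Mixl1, Kdr and Mesp1 were not among the named clones, nor were Sox17, Afp, Sox1, Pax6 or Cdx2, so that mesoderm could not be assessed by its defining genes. Of 13 endoderm markers 11 were measured, with 2 higher and 2 lower on both dye pairs and differences from -0.12 to 0.35. Gata4 and Gata6, the factors that specify primitive endoderm, differed by 0.08 ± 0.17 and -0.05 ± 0.21 (SE), and the serum carrier gene Ttr by -0.02 ± 0.20 (SE). Lamc1, the laminin gamma chain of basement membrane, had the largest value at 0.35 ± 0.29 (SE), with 0.05 in the Cy3 pair.

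Over the wider list of 33 extraembryonic endoderm genes, 8 were higher and 11 lower on both pairs, with a median of 0.03. The lowest was Ctsl, described above, at -0.66 and -1.45 (-0.36 and -1.11 after print block centring). Of 13 mesendoderm genes, 5 were higher and 6 lower on both pairs. Cdh2 (N-cadherin) stood at -0.04 and -0.07 in D3-LIF bodies against -0.09 and -0.99 in D3+LIF bodies, and Pdgfra, a receptor of early mesoderm, differed by -0.21 and -0.52. After print block centring neither kept one sign on both pairs, with -0.06 and 0.64 for Cdh2 and 0.21 and -0.23 for Pdgfra. Mesp2, a factor of somite formation, had 3 clones that disagreed in the Cy3 pair (0.34, 0.20 and -0.17). Its Cy5 value rested on 1 clone at 1.26. The platform annotation gives that clone as Mesp2, but the primer list of the study names it without a gene symbol, so its identity is uncertain. The T-box factor Eomes differed by -0.07 ± 0.82 (SE) and the growth factor gene Bmp4 by 0.22 ± 0.23 (SE), neither larger than its error.

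Signs of other cell types were equally small. The neurectoderm marker Nes differed by 0.04, the trophoblast keratin Krt7 by -0.24, the embryonic globins Hba-x and Hbb-y by 0.18 and -0.09, and the fibroblast collagens Col1a1, Col1a2 and Col3a1 by -0.02, 0.19 and -0.04. Of 8 genes on the primitive ectoderm list, 4 were higher and 2 lower on both pairs. The lower ones were Tdgf1 and Zfp42, of which Zfp42 marks ES cells and is lost in primitive ectoderm. The de novo DNA methyltransferase gene Dnmt3a differed by 0.13 ± 0.15 (SE).

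The cell cycle list leaned to lower values without any gene passing the test, and its share was not tested against that of all genes. Of 52 genes, 26 (50%) were lower on both pairs and 6 higher, beside 34.7% of all genes lower and 26.4% higher, with a list median of -0.14 beside -0.02 and 0 called. After print block centring 20 of them (38.5%) were lower on both pairs, beside 29.2% of all genes. Without the D3+LIF Cy5 array the list median was 0.06. In that fit the remaining D3+LIF array was set against both D3-LIF arrays, so the pairing by dye was lost. The Cy3 pair alone, which does not use the D3+LIF Cy5 array, had a list median of -0.12. With the Cy3 arrays turned the list median was -0.04.

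The 2 cell cycle genes of smallest p were Ccnd1 and Bub3, a spindle checkpoint protein, which stood at -0.06 and -0.74 in D3-LIF bodies against 0.34 and -0.16 in D3+LIF bodies. Chosen after the values were seen, the replication licensing factor Cdt1 differed by -0.82 and -0.66, cyclin E1 (Ccne1) by -0.35 and -0.96, and the proliferation antigen Mki67 by -0.30 and -0.94. In the other direction, the mitotic survivin gene Birc5 differed by 0.43 and 1.44 and Uhrf1, which maintains DNA methylation, by 0.27 and 1.04. After print block centring the Cy3 difference was 0.09 for Mki67 and -0.06 for Uhrf1, so neither kept its shared sign, and Cdt1 gave -0.32 and -0.43.

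Cytosolic ribosomal protein genes showed how far the dyes differed. Their median on the arrays was -0.67 (Cy3) and -2.31 (Cy5) in D3-LIF bodies and -0.45 and -2.32 in D3+LIF bodies, so that the 74 genes lay far below the slide median on either Cy5 array. The differences had a median of -0.26 in the Cy3 pair and 0.06 in the Cy5 pair. On both pairs 7 genes were higher (9.46%) and 30 lower (40.5%), beside 26.4% and 34.7% of all genes. Rps3, a small subunit protein, differed by -0.48 and -1.24, with a Cy5 difference of -2.27 in its slide 1 clone and -0.22 in its slide 2 clone, and Rpl37 by 0.49 and 0.45. With each slide scaled to equal spread, the list median was -0.65 beside -0.09, and with the Cy3 arrays turned it was 0.16. Without the D3-LIF Cy3 array it was 0.24, and without the D3+LIF Cy5 array it was 0.09, so no direction held for this list.

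A list of genes that the study discussed from its arrays had 19 measured members. It does not hold every gene that the study took from them, since its primer list also names Chchd2 and Rps27l among others. All were chosen on these samples, so their array values are not independent evidence of a direction. The study also tested genes from its arrays by RT-PCR on replicate sets of EBs, and kept those whose pattern recurred. Actb and Gapdh are in the list because the study found them to vary on the arrays. Those RT-PCR results do not enter the values here. At Day 3, 2 were higher and 7 lower on both dye pairs, and 10 were opposite. The 2 higher ones were Hnrnpk and Atp5b, a subunit of the ATP synthase, with 0.00 and 0.76. Dppa5a, Ftl1, Rplp1, Eif4a1, Rpl8, Actb and Tubb5 were the lower ones. Rplp1 gave -0.58 and -0.52, and the Cy5 difference of Tubb5 (-0.31) rested on 1 of its 7 clones, at -3.08, beside -0.44 to 0.73 in the others. Aurkb, a mitotic kinase, was opposite in the pairs (0.67 and -0.35), and the reference genes Gapdh and Hprt differed by 0.06 ± 0.90 and 0.06 ± 0.55 (SE).

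The Day 3 difference was then set against the mean LIF difference of Days 1, 2 and 4. In the limma fit 0 of 15360 clones (0%) and 0 of 7142 genes (0%) differed, so that no gene was particular to Day 3 by this test. An unadjusted p under 0.05 was found for 87 clones (0.566%) and 38 genes (0.532%). The 3 of smallest p below the other days were Arl2, Ywhae and Dlg3. Ywhae differed by -0.14 at Day 1, 1.08 at Day 2, -1.41 at Day 3 and 0.88 at Day 4, and Arl2 by 0.08, 0.39, -0.84 and -0.23. The 3 above the other days were A730082K24Rik, Usp2, a deubiquitinase, and Capg, an actin capping protein, and Capg differed by -0.37, -0.17, 0.44 and -0.08 over the same days.

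Of the ES cell markers, Zfp42 was the one whose value was lower without LIF in every dye pair measured. Its Cy3 pairs gave -0.79, -0.08, -0.84 and -1.74 at Days 1, 2, 3 and 4, and its Cy5 pairs gave -0.96 at Day 3 and -0.56 at Day 4, with no Cy5 value at Days 1 and 2. Dppa5a gave -0.28, 1.44, -1.33 and 1.88 in the Cy5 pairs, and -0.23, 0.01, -0.66 and -0.59 in the Cy3 pairs. Pou5f1 gave -0.83, 1.42, -0.52 and 0.03 in the Cy3 pairs, and Nanog gave -1.01, 0.38, 0.73 and -0.38 in the Cy3 pairs. These 3 genes changed sign between days in the same dye, but in the Cy3 pairs Dppa5a was never above 0.01. None of them passed the test of the difference. Except for Dppa5a these genes lay on slide 1, where the Cy5 pairs of Days 1 and 2 include arrays that stood apart. Dppa5a lay on slide 2, where the Cy5 pair of Day 4 includes the D4+LIF array with the widest spread.

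**Figure D5:**
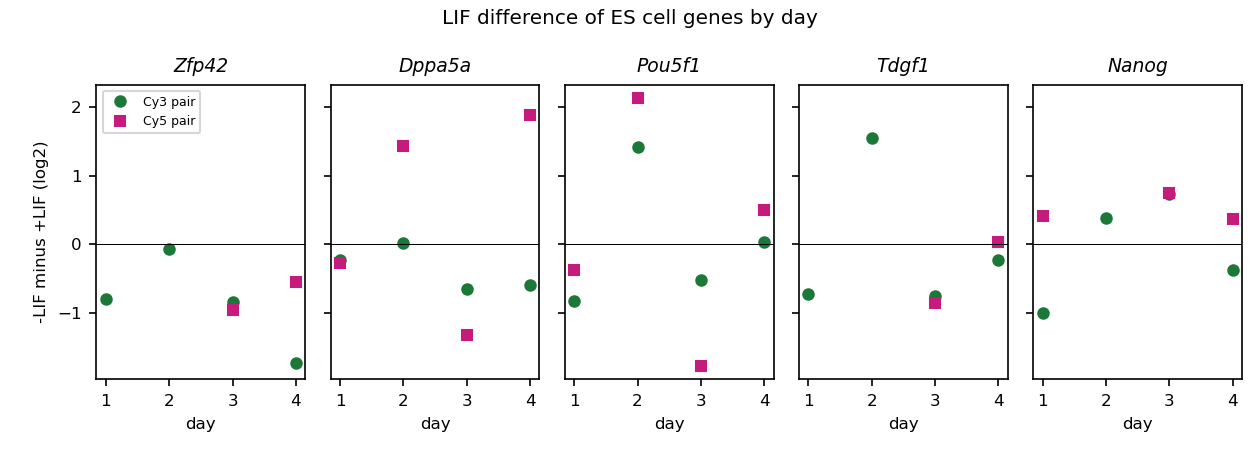
Difference without LIF minus with LIF (log2, y axis) at Days 1 to 4 (x axis) of 5 ES cell genes, with the Cy3 pair as green circles and the Cy5 pair as magenta squares. Zfp42 lies below 0 at each of the 4 days, and the other genes lie on both sides of 0.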

How the data were processed

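Samples were RNA of ES cells and EBs hybridised with a pooled control to 2-slide NIA 15K cDNA arrays, 2 arrays per condition with the dyes switched. The authors scanned the slides, quantified spots in ImaGene and scaled both channels to their average brightness; the deposited values are linear ratios of the 2 channels per spot, without channel intensities, and which channel was on top is not stated. The pool held EB RNA of Days 1 to 4 by the labels, and all samples by the methods. Array number limits the precision.

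The ratios were turned to log2, 1 spot at exactly 0 was set missing, and duplicate spots were averaged. A print block held 360 spots, with copies 160 spots apart, as shown by equal accessions in all 10140 annotated clones; 3840 unpaired spots were left out. Symbols came from the platform annotation (5220 clones had none and 274 several), and 9760 clones matched RefSeq. Each slide of each array was centred on its median.

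Clones, and genes as means of their clones, were fitted with limma 3.58.1 in R 4.3.3 (9 condition means and a dye term, 18 arrays), with Benjamini-Hochberg adjustment over all clones or genes and a call at adjusted p under 0.05. Of the genes, 3626 lacked a value on at least 1 array outside Day 3, which was dropped for that gene. The fit was run on simulated data with known changes, as a check that its mean estimates lay near them. How many of those changes were called is not reported here, so this check does not show what size of difference could be called. No columns of other samples were used (0). The members, lists and alternatives were chosen with earlier results of these data known. Named genes were the 12 of smallest p each way with one sign on both pairs, the 6 largest each way among genes whose clones agreed, the 2 of smallest p in each list, the genes of the LIF, pluripotency, mesendoderm and study lists, and the 3 of smallest p each way against the other days.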

Additional observations from a re-analysis of the deposited data

How the results depend on the processing

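The count of called clones and genes, for the Day 3 difference and for its comparison with the other days, was 0 under every alternative run. These were other centrings, equal spread, quantile normalization, fewer arrays, complete clones only, tight duplicates only, duplicate spots kept apart, array weights, the Cy3 arrays turned, and a 2-fold limit. Without the dye term as a replicate block the count was also 0, with 17 genes at an unadjusted p under 0.05. Leaving out each Day 3 array in turn gave 0 to 0 calls. Chosen after seeing the data, slide 1 clones fitted on the 4 Day 3 arrays alone gave a smallest adjusted p of 0.0549, against 0.81 on slide 2. The number of clones past 2-fold in all spot pairs was 1 with print block centring and 1 with the Cy3 arrays turned, beside 2. The clones with one sign on both pairs numbered 3811 with the Cy3 arrays turned and 5156 with print block centring, beside 6055. Among 179 named genes, the direction was kept by 163 with no centring, 156 with print block centring, 151 with equal spread, 156 with quantile normalization and 134 with the Cy3 arrays turned. Genes lower in D3-LIF made up 54.2% of all genes, 58.5% with no centring, 46.8% with the Cy3 arrays turned, and 48.8% (without the D3+LIF Cy5 array) to 61.5% (without the D3-LIF Cy5 array) when 1 array was left out. Leaving out an array moved single genes widely: Pou5f1 ranged between -2.11 and -0.18 and Zfp42 between -1.52 and -0.27. The causes were not tested.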

Other observations

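Other groups of genes were described in the same way, with 0 called in each. Counts are of genes lower or higher on both dye pairs, as were 34.7% (lower) and 26.4% (higher) of all genes. None of these lists was tested against those shares or counted after print block centring. Mitochondrial ribosomal protein genes were lower on both dye pairs in 22 of 48 and higher in 12, with a median of -0.13. Mrpl58, a ribosome rescue factor, stood at -0.13 and -0.13 in D3-LIF bodies against 0.33 and 0.39 in D3+LIF bodies, and Mrpl45 differed by -0.23 and -0.77. Genes of oxidative phosphorylation were lower in 28 and higher in 18 of 64. Among them Ndufb11 and Ndufaf1, a subunit and an assembly factor of complex I, had mean differences of -0.54 and 0.46. With print block centring the means were -0.30 for Ndufb11, 0.30 for Ndufaf1 and -0.20 for Mrpl45. Of 18 glycolysis genes, 7 were lower and 2 higher. The glucose transporter gene Slc2a3 differed by -0.50 and -1.58, and Tpi1 by -0.07 and 1.46. Of 14 hypoxia genes, 6 were higher and 5 lower.

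Translation factors were lower in 23 of 55 (41.8%) and higher in 9. Near or below the 34.7% of all genes, chaperones were lower in 25 of 67 (37.3%) and higher in 17. Proteasome and ubiquitin genes were lower in 20 of 68 (29.4%) and higher in 14. Splicing and hnRNP genes were lower in 18 of 51 (35.3%) and higher in 13. Histone and chromatin genes were lower in 22 of 63 (34.9%) and higher in 16. In the last list, Hdac2, a histone deacetylase, differed by -0.21 and -0.80, and Kdm3a, a histone demethylase, by 0.13 and 0.76 (means of -0.31 and 0.43 after print block centring). Cytoskeletal genes were lower in 18 of 37 and higher in 8. The non-muscle myosin gene Myh9 stood at -0.10 and -0.62 in D3-LIF bodies against 0.55 and -0.02 in D3+LIF bodies, a difference of -0.62 ± 0.26 (SE), but print block centring gave 0.09 and -0.36, with a mean of -0.13, so that its shared sign was lost.

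Basement membrane and matrix genes were higher in 6 and lower in 6 of 24, and imprinted genes higher in 6 and lower in 5 of 23. The tetraspanin gene Cd81 in the imprinted list differed by 0.14 and 1.64, and the zinc finger gene Plagl1 by 0.27 and 0.35 (0.10 and 0.16 after print block centring). Cholesterol synthesis genes were lower in 5 and higher in 3 of 12, p53 targets lower in 3 of 8 with none higher on both pairs, and genes of iron and oxidative stress lower in 6 and higher in 2 of 18. Trophoblast genes were lower in 6 and higher in 2 of 13, erythroid genes 4 each way of 9, fibroblast genes higher in 5 and lower in 4 of 15, and neurectoderm genes higher in 3 and lower in 1 of 7.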
